A study of Mus musculus with 2 samples.

Results

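The 7 genes described here encode calmodulin and the calmodulin-activated kinases other than CaM kinase II: the calmodulin genes Calm2 and Calm3, the upstream kinases Camkk1 and Camkk2, and the effector kinases Camk1, Camk1d and Camk4. They were taken by symbol from the 32285 genes listed in both count matrices, and all 7 were found. The transcripts were counted as unique molecular identifiers (UMIs) by droplet single-cell RNA sequencing of the 3′ end. The cells were the stromal vascular fraction (SVF) of mouse epididymal white adipose tissue (eWAT), that is, what collagenase frees from the fat once mature adipocytes are spun away, here after lysis of red blood cells with ACK buffer. Per the labels, 10000 to 13000 cells were loaded per channel in a single batch. The groups, with 1 library each, were Camk2d-CKO, in which Camk2d was deleted conditionally in the myeloid lineage, and Wild-type; both had been on a high-fat diet for 10 weeks. The Wild-type sample carries NC in its title.

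The labels do not name the Cre driver, the deleted exons or the age of the mice, and do not say how many mice a library came from. The description of each sample names embryonic hindlimb where all other labels give fat, and the libraries were treated as fat. With 1 library per genotype nothing was tested between genotypes. All intervals are 95% intervals of counting error and say nothing about the spread between mice.

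Calmodulin is a small calcium sensor that, once loaded with calcium, binds and switches on many enzymes. Calm2 and Calm3 are separate genes for the same protein. Among its targets is a kinase cascade: the CaM kinase kinases, CaMKK1 and CaMKK2, phosphorylate CaM kinases I and IV in their activation loop, and CaMKK2 also phosphorylates AMP-activated protein kinase, the energy sensor of the cell. CaM kinase IV acts mainly in the nucleus, where it phosphorylates the transcription factor CREB, and is known for its expression in T cells and neurons. CaMKK2 has been studied in macrophages, and mice lacking it in diet-induced obesity.

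The upstream kinase Camkk2 and its substrate Camk1 shared a pattern between macrophage subsets, and the bases before their starts are shown because they differ in composition. Both lie on the minus strand, and the sequences are those of RefSeq for build GRCm38.p6, ending before the starts of both the RefSeq and the GENCODE M21 gene. The Camkk2 stretch of 250 bases is chr5:122779411-122779660 and the Camk1 stretch of 188 bases is chr6:113343985-113344172. Capitals mark a match to GGGCGG or its reverse complement CCGCCC, the letters bound by SP1.
Camkk2: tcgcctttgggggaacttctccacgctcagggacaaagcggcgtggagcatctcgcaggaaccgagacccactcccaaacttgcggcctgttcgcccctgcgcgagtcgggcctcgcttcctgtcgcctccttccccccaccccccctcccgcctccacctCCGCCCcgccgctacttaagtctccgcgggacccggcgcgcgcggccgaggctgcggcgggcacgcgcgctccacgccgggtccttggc
Camk1: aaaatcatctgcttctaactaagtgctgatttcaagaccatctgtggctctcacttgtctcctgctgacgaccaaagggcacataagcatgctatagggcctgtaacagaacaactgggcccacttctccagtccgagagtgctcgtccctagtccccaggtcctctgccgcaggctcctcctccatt
G and C made up 72.4% of the Camkk2 stretch and 52.7% of the Camk1 stretch. The Camkk2 stretch held 1 match to GGGCGG on either strand, which 32.7% of the 32851 listed promoters held in a window of that length, and no match to TGACTCA (AP-1, 4.46%), TGACGTCA (CREB, 1.55%) or GAGGAA (PU.1, 23.3%). None of the letter runs was found in the Camk1 stretch; in a window of 188 bases they were held by 22.4%, 3.30%, 0.664% and 17.8% of promoters in the same order. The match overlapped no other match. These are descriptions of the letters in these windows.

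The genes lie apart from one another. In mm10 (GENCODE M21), Calm2 (ENSMUSG00000036438) spans 87433412 to 87446935 on chromosome 17 and Calm3 (ENSMUSG00000019370) spans 16915379 to 16924114 on chromosome 7. Camkk1 (ENSMUSG00000020785) spans 73019008 to 73042073 on chromosome 11 and Camkk2 (ENSMUSG00000029471) spans 122731170 to 122779409 on chromosome 5. Camk1 (ENSMUSG00000030272) spans 113334124 to 113343984 on chromosome 6, Camk1d (ENSMUSG00000039145) spans 5293457 to 5714515 on chromosome 2, and Camk4 (ENSMUSG00000038128) spans 32934931 to 33191228 on chromosome 18. Camkk1 and Camk4 lie on the plus strand and the other members on the minus strand. How the authors treated reads that match several places, such as processed copies of a calmodulin gene, is not given in the sources used here.

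There were 10631 barcodes in the Camk2d-CKO library and 15555 in the Wild-type library, with 87015918 and 75436677 UMIs in total and medians of 7385 and 3094 UMIs per barcode. After filtering, 9200 and 14854 barcodes remained, and 48 barcode sequences occurred in both libraries. Marker genes placed 7330 Camk2d-CKO barcodes (79.7%) and 7851 Wild-type barcodes (52.9%) in a class. The barcodes in no class had medians of 2545.5 and 2338 UMIs. Sperm markers held 4554 UMIs in the whole Camk2d-CKO library and 15 in the Wild-type library. Joint clustering placed 725 Camk2d-CKO and 55 Wild-type barcodes in a cluster named by sperm markers. A class is called X-like because it rests on at least 3 marker genes per cell, except for erythroid-like cells. That class holds every kept barcode with more than 20% of its UMIs in haemoglobin genes and Alas2, whatever its other markers. Levels are counts per 1000000 UMIs of the class (CPM). They are not divided by transcript length, since each UMI is 1 captured 3′ end, and are compared within a gene only. A total of 8 classes had at least 50 cells in both libraries: macrophage-like (1385 Camk2d-CKO and 2941 Wild-type cells), type 1 dendritic-like (99 and 138), T-like (1072 and 490), natural killer-like (131 and 104), B-like (357 and 388), progenitor-like (3760 and 2586), blood endothelial-like (99 and 62) and erythroid-like (204 and 1024). Camk2d itself held 27.3 CPM in Camk2d-CKO against 47.2 CPM in Wild-type macrophage-like cells (log2 ratio -0.79, -0.95 to -0.63) and 20.8 against 25.4 CPM in dendritic-like cells (-0.29, -1.11 to 0.53). The 50 Camk2d-CKO and 26 Wild-type monocyte-like cells went the other way, at 72.8 CPM (33 UMIs) against 25.1 CPM (3 UMIs), with an interval that held 0 (1.54, -0.13 to 3.89). The 3′ ends counted may lie outside the deleted part. In 7 of the 8 classes, markers of foreign cell types summed to a lower level in the Camk2d-CKO library than in the Wild-type library: of 11 stroma, B, lymphoid and erythroid markers, all 11 were lower in the Camk2d-CKO library in macrophage-like cells, with summed levels of 2533 against 6390 CPM and none at 0. Blood endothelial-like cells were the exception, with 10913 against 7408 CPM and 10 of 15 markers lower in Camk2d-CKO. The median level of the foreign markers relative to the whole library was, in macrophage-like cells, 3.62% for Camk2d-CKO and 14.3% for Wild-type, in T-like cells 8.11% and 18.6%, and in endothelial-like cells 4.29% and 13.04%. The part of this free RNA in each result was not tested except where a subtracted value is given.

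Since each level is a sum over cells, more transcripts per cell and more cells of a high subset cannot be told apart in a class. Over the 8 classes, 37 of the 56 pairs of a member and a class held at least 10 CPM in the higher library and at least 30 UMIs over both. Of these 37, 3 were at least 1.5-fold higher in the Camk2d-CKO library: Camkk2 in macrophage-like, Camk4 in T-like and Camk1d in B-like cells. Among all genes that passed the same floors, 4.11% were that much higher in macrophage-like, 6.8% in T-like and 16.3% in B-like cells, so the B-like value stood against a broad background. A further 10 pairs were at least 1.5-fold lower: Camk1 in dendritic-like, T-like, natural killer-like and B-like cells, Camk1d in progenitor-like cells, and 5 members in erythroid-like cells. All genes that much lower made up 11.1% in dendritic-like, 13.5% in T-like, 10.2% in natural killer-like, 13.3% in B-like, 8.27% in progenitor-like and 80.8% in erythroid-like cells. The erythroid-like values thus stood against a shift of the whole class, whose median gene had a log2 ratio of -1.28. With median-of-ratios scaling, Calm2 (-1.16), Calm3 (-1.37) and Camk1 (-1.66) stayed past 1.5-fold there. Camkk2 (-0.15) and Camk1d (-0.56) did not. In the other classes the median gene lay between -0.12 (macrophage-like) and 0.11 (B-like), with -0.10 in progenitor-like and 0.02 in T-like cells.

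**Figure D1:**
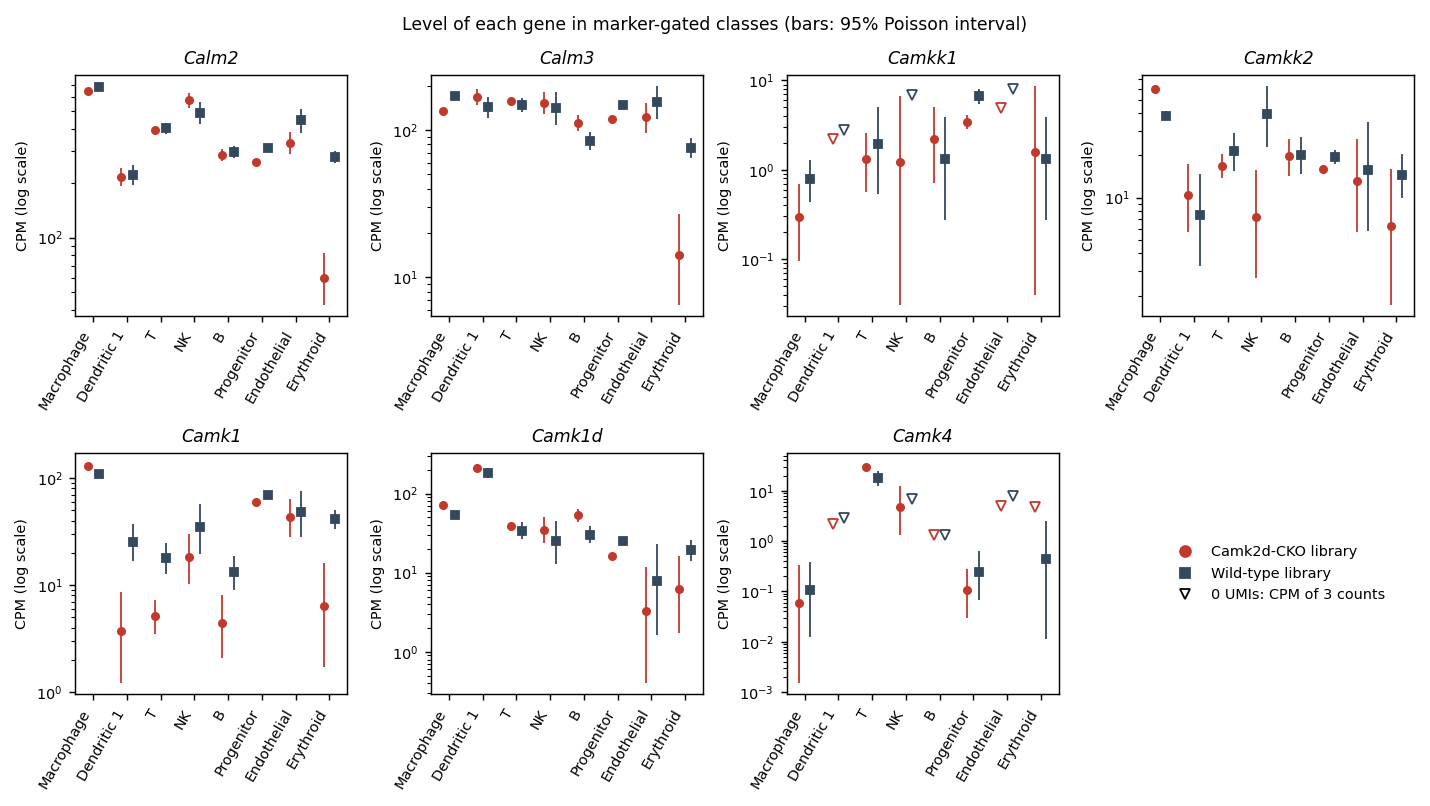
Level of each of the 7 genes in CPM (log axis) in the 8 classes, with Camk2d-CKO as red circles left of Wild-type as dark squares. Bars are 95% Poisson intervals, and open triangles stand at the CPM of 3 counts where a gene had 0 UMIs. Camk1 is high in macrophage-like and progenitor-like cells, Camk1d in dendritic-like cells, and Camk4 is above 10 CPM in T-like cells alone of these classes.

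Calm2, the more deeply counted of the calmodulin genes, was detected in every class and was close to level between the genotypes in most of them. Macrophage-like cells held 649 CPM (637 to 661) in Camk2d-CKO and 680 CPM (669 to 692) in Wild-type, the highest level among the 8 classes in both libraries. Natural killer-like cells were next, at 573 CPM in Camk2d-CKO and 489 CPM in Wild-type (log2 ratio 0.23, -0.01 to 0.47). T-like cells held 394 against 403 CPM (-0.03), B-like cells 287 against 296 CPM (-0.05) and dendritic-like cells 216 against 222 CPM (-0.04). Calm2 was lower in Camk2d-CKO progenitor-like cells, at 262 against 312 CPM (-0.25, -0.30 to -0.20), and in Camk2d-CKO blood endothelial-like cells, at 332 against 444 CPM (-0.42, -0.72 to -0.11). The endothelial difference did not hold when cells were classed by joint clustering, which gave 0.000958. Erythroid-like cells, at 59.9 CPM in Camk2d-CKO and 278 CPM in Wild-type, were the class in which the libraries were furthest apart. In each library the order ran from macrophage-like over natural killer-like cells to T-like or endothelial-like cells; in Wild-type the natural killer-like (425 to 559 CPM), endothelial-like (379 to 516) and T-like (376 to 431) intervals overlapped.

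Calm3, the other calmodulin gene, was detected in every class and was lowest in erythroid-like cells, at 14.2 CPM in Camk2d-CKO and 76.1 CPM in Wild-type (log2 -2.42, -3.58 to -1.47). Outside that class it spanned a narrower range than Calm2, at 111 to 168 CPM in Camk2d-CKO and 84.3 to 170.0 CPM in Wild-type, where Calm2 spanned 216 to 649 and 222 to 680 CPM. The Camk2d-CKO levels were 168 CPM in dendritic-like, 157 in T-like, 154 in natural killer-like, 135 in macrophage-like, 122 in endothelial-like, 119.7 in progenitor-like and 111 CPM in B-like cells. The Wild-type levels in the same classes were 143, 148, 141, 170.0, 156, 148 and 84.3 CPM. Calm3 was thus lower in Camk2d-CKO macrophage-like cells (log2 -0.33, -0.41 to -0.25) and progenitor-like cells (-0.31, -0.38 to -0.24) and higher in Camk2d-CKO B-like cells (0.40, 0.13 to 0.68). In T-like, natural killer-like, dendritic-like and endothelial-like cells the interval of the ratio held 0. None of the differences outside erythroid-like cells reached 1.5-fold. Neither library had a class with a clear lead: in Camk2d-CKO the dendritic-like (147 to 192 CPM), T-like (147 to 167) and natural killer-like (128 to 183) intervals overlapped, and in Wild-type the macrophage-like interval (164 to 176) overlapped those of natural killer-like (108 to 182) and endothelial-like cells (119 to 201).

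Camkk2, which activates CaM kinases I and IV and AMP-activated protein kinase, had more UMIs in macrophage-like cells than in any other class of both libraries, and its level there was higher in Camk2d-CKO. Macrophage-like cells held 59.3 CPM (55.6 to 63.0, 1005 UMIs) in Camk2d-CKO and 38.5 CPM (35.7 to 41.3, 734 UMIs) in Wild-type, a log2 ratio of 0.62 (0.49 to 0.76). They carried 45.0% of all Camkk2 UMIs of kept barcodes in the Camk2d-CKO library and 37.9% in the Wild-type library. The other well-counted classes held less: 19.7 against 20.2 CPM in B-like, 16.9 against 21.4 CPM in T-like and 15.9 against 19.5 CPM in progenitor-like cells, where the ratio was -0.30 (-0.49 to -0.10). Natural killer-like cells had 6 UMIs in Camk2d-CKO (7.25 CPM) and 17 in Wild-type (39.4 CPM, 22.9 to 63.1), under the floor of 30 UMIs; the Wild-type level was next to that of macrophage-like cells and their intervals overlapped. Migratory dendritic-like cells, with 39 and 24 cells, held 66.3 CPM (42.0 to 99.5) against 36.2 CPM (11.8 to 84.5), and monocyte-like cells, with 50 and 26 cells, 81.7 CPM (57.5 to 113) against 134 CPM (76.4 to 217). These intervals overlapped between the libraries.

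At equal depth the shares of macrophage-like cells with a Camkk2 UMI differed less between the libraries than they did unthinned. With every cell thinned to 2000 UMIs, 135 of 1216 Camk2d-CKO macrophage-like cells (11.1%, at least 9.39% by its interval) and 183 of 2287 Wild-type cells (6.92% to 9.19%) kept a Camkk2 UMI, and these intervals did not overlap. Unthinned, at medians of 11337 and 4977 UMIs, the shares were 41.5% and 19.5%. For comparison, erythroid-like cells kept a UMI in 0.901% of 111 Camk2d-CKO and 3.54% of 480 Wild-type cells after thinning. The medians of that class were 2199 and 1952.5 UMIs. The thinning left out 169 and 654 macrophage-like cells with fewer UMIs.

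The macrophage-like class is a mixture whose parts differ in Camkk2. Lipid-associated macrophage-like cells (Trem2, Gpnmb, Spp1 and related markers) numbered 600 in Camk2d-CKO and 2038 in Wild-type, 43.3% and 69.3% of the class. Resident perivascular macrophage-like cells (Lyve1, Folr2, Cd163 and related markers) numbered 607 and 679, 43.8% and 23.1%. The subsets were set by the number of distinct markers detected per cell, so these shares may depend on depth. The class medians were 11337 UMIs in Camk2d-CKO and 4977 in Wild-type, and the part of depth was not tested. Camkk2 held 42.4 CPM (38.2 to 46.9) in Camk2d-CKO against 31.0 CPM (28.2 to 34.0) in Wild-type lipid-associated cells, and 76.1 CPM (69.7 to 83.0) against 66.5 CPM (58.7 to 75.0) in resident cells. The resident cells were thus the higher subset in both libraries, with a log2 ratio of lipid-associated over resident cells of -0.84 (-1.04 to -0.65) in Camk2d-CKO and -1.10 (-1.32 to -0.88) in Wild-type. Of all genes counted in both libraries, 9.2% were at least 1.5-fold lower in lipid-associated cells in each library and 6.79% at least 1.5-fold higher. Within a subset the genotype ratio was 0.45 (0.25 to 0.65) in lipid-associated and 0.19 (-0.02 to 0.41) in resident cells, against 0.62 in the whole class; in both subsets it was below 1.5-fold, a fold that 3.52% and 2.69% of all genes exceeded upward. With equal weight for these subsets and without the remaining cells, the level was 59.3 against 48.8 CPM, a log2 ratio of 0.28 (1.22-fold), under the 1.5-fold line. The remaining cells lay past that line: 128 Camk2d-CKO and 209 Wild-type cells in no subset, at medians of 1381 and 1589 UMIs, held 91.6 against 32.6 CPM (1.49, 0.58 to 2.48). Cavity-type macrophage-like cells, 50 and 15 of them, held 82.8 CPM (76 UMIs) against 31.8 CPM (4 UMIs), with an interval that held 0 (1.38, -0.04 to 3.29). With the estimated free RNA subtracted the class held 60.4 against 40.4 CPM, a log2 ratio of 0.58, also just under the line.

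**Figure D2:**
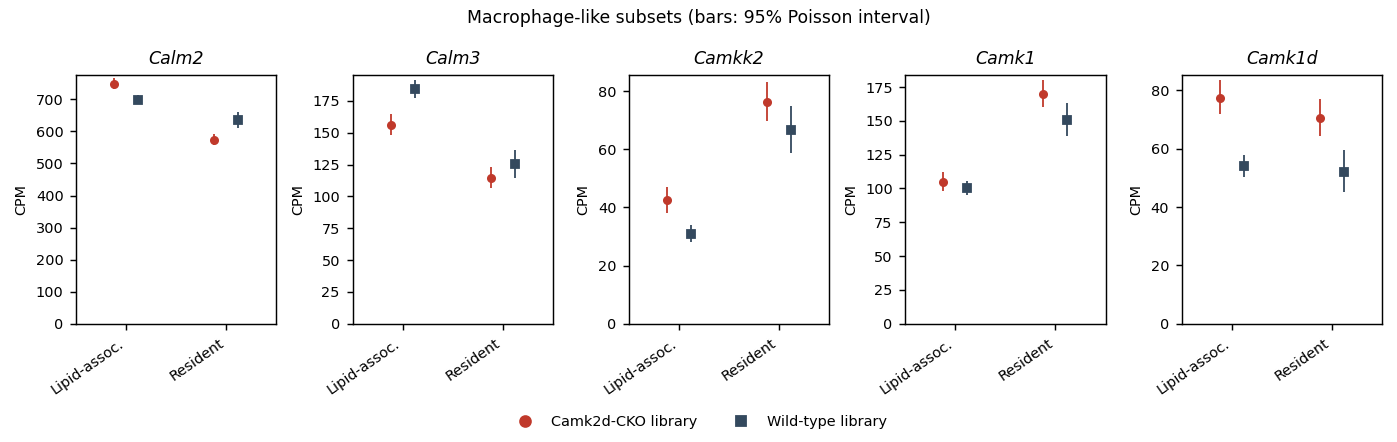
Level in CPM (linear axis from 0) of the 5 members counted in macrophage-like cells, in lipid-associated and resident perivascular subsets. Camk2d-CKO is the red circle left of the dark square of Wild-type, and bars are 95% Poisson intervals. Camkk2 and Camk1 stand higher in the resident subset and Calm3 in the lipid-associated subset in both libraries, while Camk1d differs between libraries and not visibly between subsets.

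The other members were compared between the macrophage-like subsets as well. Camk1 held 105 CPM in Camk2d-CKO and 100.3 CPM in Wild-type lipid-associated cells, against 169.9 and 150.4 CPM in resident cells, a log2 ratio between subsets of -0.69 (-0.82 to -0.57) in Camk2d-CKO and -0.59 (-0.72 to -0.45) in Wild-type. Calm3 ran the other way, at 156 and 184 CPM in lipid-associated cells of Camk2d-CKO and Wild-type and 114 and 125 CPM in resident cells, ratios of 0.45 (0.32 to 0.58) and 0.56 (0.42 to 0.70). Calm2 stood higher in lipid-associated cells by 0.38 (0.33 to 0.44) in Camk2d-CKO and 0.14 (0.08 to 0.20) in Wild-type, where the mean of per-cell levels gave 0.02. Camk1d, which was at 77.5 and 53.9 CPM in lipid-associated and at 70.5 and 51.9 CPM in resident cells of Camk2d-CKO and Wild-type, did not separate the subsets beyond counting error (0.14, -0.03 to 0.31, and 0.05, -0.17 to 0.28).

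Camkk1, the other upstream kinase, was rare. The whole Camk2d-CKO library held 184 Camkk1 UMIs and the Wild-type library 232, and progenitor-like cells carried 71.9% and 49.8% of those in kept barcodes. Progenitor-like cells held 3.46 CPM (2.88 to 4.11, 128 UMIs) in Camk2d-CKO and 6.63 CPM (5.44 to 7.995, 109 UMIs) in Wild-type, under the floor of 10 CPM. Macrophage-like cells held 0.295 CPM (5 UMIs) against 0.786 CPM (15 UMIs). Camkk2 was counted in both of these classes: progenitor-like cells had 589 Camkk2 UMIs in Camk2d-CKO and 321 in Wild-type, 26.4% and 16.6% of its UMIs in kept barcodes. Within the progenitors, interstitial cells (Dpp4, Pi16 and related markers) held 8.04 CPM in Camk2d-CKO and 11.4 CPM in Wild-type, against 2.87 and 4.49 CPM in committed cells (Icam1, Col15a1, Pparg and related markers). The log2 ratio between these subsets was 1.48 (0.90 to 2.08) in Camk2d-CKO and 1.35 (0.75 to 1.95) in Wild-type. After thinning to 2000 UMIs, 1.42% of 634 Camk2d-CKO and 2.33% of 687 Wild-type interstitial cells kept a Camkk1 UMI, against 0 of 1216 (up to 0.247%) and 2 of 2287 macrophage-like cells.

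Camk1, a broadly expressed CaM kinase I, marked macrophage-like and progenitor-like cells. Macrophage-like cells held 130.1 CPM (125 to 136) in Camk2d-CKO and 109.6 CPM (105 to 114) in Wild-type, a log2 ratio of 0.25 (0.16 to 0.33). Progenitor-like cells held 59.4 against 69.1 CPM (-0.22, -0.32 to -0.11) and endothelial-like cells 43.0 against 47.6 CPM (-0.15, -1.07 to 0.81). The endothelial-like intervals (28.1 to 63.0 CPM in Camk2d-CKO and 28.2 to 75.2 in Wild-type) overlapped those of progenitor-like cells (57.0 to 62.0 and 65.1 to 73.2). In the lymphoid and dendritic classes the level was low and lower still in Camk2d-CKO. T-like cells held 5.10 CPM (31 UMIs) against 18.0 CPM (37 UMIs), a log2 ratio of -1.82 (-2.56 to -1.09). B-like cells held 4.37 CPM (10 UMIs) against 13.2 CPM (30 UMIs), a ratio of -1.59 (-2.79 to -0.52). Dendritic-like cells held 3.71 CPM (5 UMIs) against 25.4 CPM (27 UMIs), a ratio of -2.78 (-4.51 to -1.38), which joint clustering gave as -0.86. Natural killer-like cells held 18.1 against 34.7 CPM with 15 UMIs each (-0.94, -2.07 to 0.20). Foreign markers moved with these values: Lyz2, a myeloid gene, held 158 CPM in Camk2d-CKO and 481 CPM in Wild-type T-like cells and 136 and 369 CPM in B-like cells, and all 13 foreign markers of T-like cells and 11 of 13 of B-like cells were lower in Camk2d-CKO, with none at 0. Camk1 made up 65.7 CPM of the whole Camk2d-CKO and 73.7 CPM of the whole Wild-type library. With the estimated free RNA subtracted, T-like cells were left with 0 against 5.31 CPM, B-like cells with 1.91 against 3.85 CPM and dendritic-like cells with 1.28 against 19.4 CPM.

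Thinned shares gave the same picture of where Camk1 was counted. At 2000 UMIs per cell, 22.5% of 1216 Camk2d-CKO and 19.6% of 2287 Wild-type macrophage-like cells kept a Camk1 UMI, and 10.4% of 3491 and 11.5% of 2275 progenitor-like cells. The T-like shares were 1.18% of 1017 and 3.38% of 473 cells. Erythroid-like cells kept a UMI in 0 of 111 Camk2d-CKO cells (a limit of 2.70%), while 6.04% of 480 Wild-type cells kept one. The Wild-type T-like share lay below the erythroid-like share of that library. The free RNA estimate was higher in Wild-type erythroid-like (31.0%) than in T-like cells (18.6%). The order of these shares is therefore not read as expression or as its absence in T-like cells. The Camk2d-CKO T-like share lay above the 0 cells counted in the erythroid-like class and below the limit that this 0 allows. Unthinned, the macrophage-like shares were 61.4% and 40.7%, the progenitor-like shares 41.4% and 33.3% and the T-like shares 2.80% and 7.35%, at T-like medians of 5045.5 and 3904 UMIs.

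**Figure D3:**
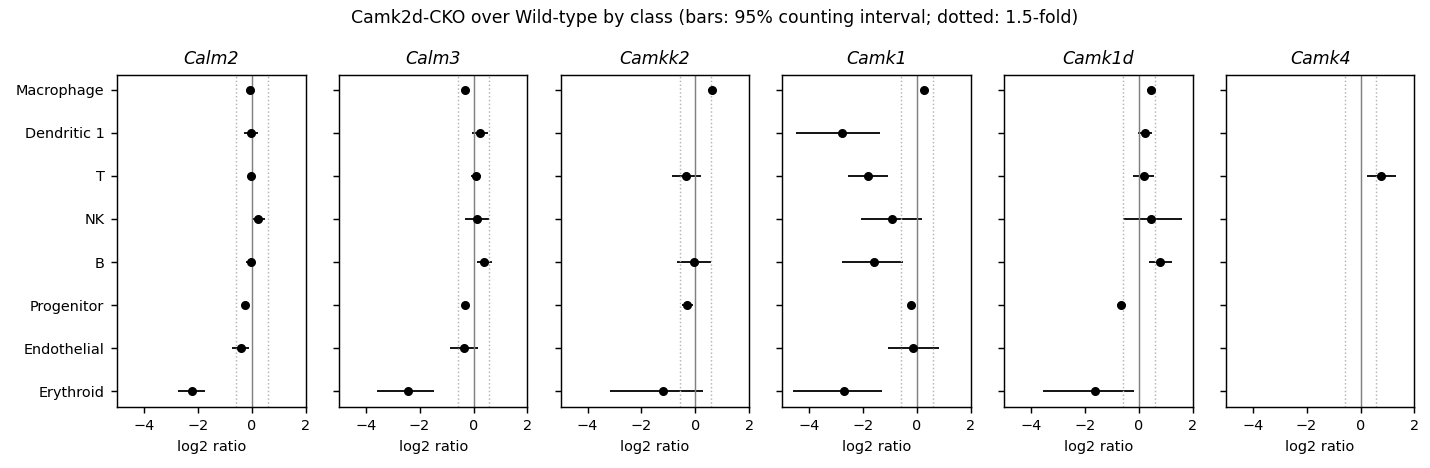
Log2 ratio of the level in Camk2d-CKO over Wild-type for each pair of a member and a class that passed the floors, with 95% counting intervals. The solid line is no difference and dotted lines are 1.5-fold in either direction. Camkk2 in macrophage-like cells lies right of the upper dotted line, Camk1 lies far left in dendritic-like, T-like and B-like cells, and every erythroid-like value lies left of the lower line.

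Camk1d, the delta form of CaM kinase I, had its highest level in type 1 dendritic-like cells, the class of cross-presenting dendritic cells marked by Xcr1 and Clec9a. These held 211 CPM (187 to 237, 285 UMIs) in Camk2d-CKO and 180.5 CPM (156 to 208, 192 UMIs) in Wild-type (log2 0.23, -0.04 to 0.50), above every other compared class in both libraries. At 2000 UMIs per cell, 35.1% of 94 Camk2d-CKO and 31.1% of 132 Wild-type dendritic-like cells kept a UMI, against 12.2% and 10.8% of macrophage-like cells and 0 of 111 Camk2d-CKO (a limit of 2.70%) and 2.92% of 480 Wild-type erythroid-like cells. Unthinned, at medians of 14260 and 7872.5 UMIs, 81.8% and 71.0% of dendritic-like cells held one. The Camk1d level was higher in Camk2d-CKO macrophage-like cells, at 72.2 CPM (68.2 to 76.3) against 53.3 CPM (50.1 to 56.7) in Wild-type, a log2 ratio of 0.44 (0.32 to 0.56). The ratio was 0.52 (0.37 to 0.67) in lipid-associated and 0.44 (0.20 to 0.68) in resident cells and 0.48 with equal weight for both, so it was as large within the subsets as over the class. At 2000 UMIs per cell the lipid-associated shares were 11.8% of 567 Camk2d-CKO and 12.1% of 1622 Wild-type cells, which does not show the difference seen in the level. B-like cells held 52.9 against 30.3 CPM (0.80, 0.36 to 1.25), which the mean of per-cell levels put at 0.56, just under 1.5-fold. T-like cells held 38.5 against 34.1 CPM (0.18, -0.22 to 0.58), and natural killer-like cells 35.1 against 25.5 CPM (0.46, -0.58 to 1.61). Endothelial-like cells had 2 and 3 UMIs.

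In progenitor-like cells Camk1d went the other way, at 16.3 CPM (15.0 to 17.7, 604 UMIs) in Camk2d-CKO and 25.5 CPM (23.1 to 28.0, 419 UMIs) in Wild-type, a log2 ratio of -0.64 (-0.83 to -0.46). Median-of-ratios scaling (-0.58), joint clustering (-0.56) and subtraction of free RNA (-0.58) each put it just under 1.5-fold. The subsets were unlike one another. Interstitial cells held 39.9 CPM in Camk2d-CKO and 40.0 CPM in Wild-type (-0.00, -0.26 to 0.26). Committed cells held 8.56 CPM (7.17 to 10.1) against 17.8 CPM (15.2 to 20.8), a ratio of -1.06 (-1.40 to -0.72), where 8.28% of all genes were at least 1.5-fold lower. Inflamed cells (Ptx3, Cxcl1, Il6 and Ccl2) held 12.4 against 16.2 CPM (-0.39, -0.98 to 0.26). The interstitial level was above the committed level by a log2 ratio of 2.22 (1.92 to 2.53) in Camk2d-CKO and 1.16 (0.86 to 1.46) in Wild-type, a contrast in which 5.28% of all genes were at least 1.5-fold higher in both libraries. With free RNA subtracted, committed cells held 7.05 against 13.4 CPM. After thinning, 6.94% of 634 Camk2d-CKO and 7.13% of 687 Wild-type interstitial cells kept a UMI, against 1.81% of 1604 and 2.90% of 1347 committed cells.

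The gated mix of progenitors differed between libraries too. These gates count distinct markers detected per cell, so the shares may depend on depth. The class medians were 10177 UMIs in Camk2d-CKO and 6418.5 in Wild-type, and the part of depth was not tested. Interstitial, committed and inflamed cells made up 17.7%, 45.1% and 32.4% of the Camk2d-CKO class and 28.3%, 60.2% and 8.04% of the Wild-type class. With equal weight per subset the Camk1d ratio was -0.28 rather than -0.64. Camk1, Camkk2 and Calm2 were more even across the progenitor subsets. Camkk1 was not, with log2 ratios of interstitial over committed cells of 1.48 in Camk2d-CKO and 1.35 in Wild-type. Camk1 held 66.6, 56.3 and 59.4 CPM in Camk2d-CKO interstitial, committed and inflamed cells and 78.2, 64.8 and 61.1 CPM in those of Wild-type. Camkk2 held 16.1, 16.1 and 15.6 CPM in Camk2d-CKO and 19.3, 20.6 and 13.2 CPM in Wild-type cells. Calm2 held 293, 249.7 and 258 CPM against 312, 314 and 300.2 CPM.

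**Figure D4:**
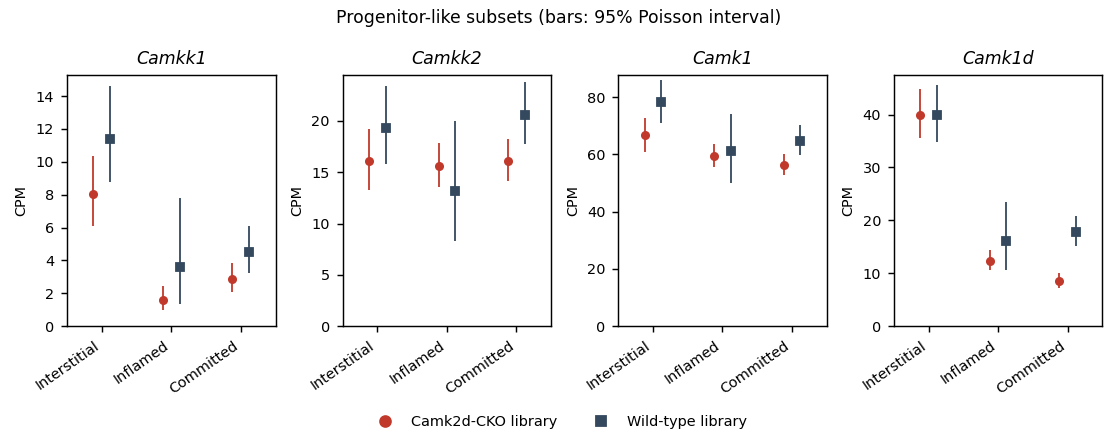
Level in CPM (linear axis from 0) of the 4 kinases counted in progenitor-like cells, in interstitial, inflamed and committed subsets. Camk2d-CKO is the red circle left of the dark square of Wild-type, and bars are 95% Poisson intervals. Camkk1 and Camk1d stand highest in the interstitial subset of both libraries, and the committed subset is where the Camk1d levels of the libraries are furthest apart.

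Camk4, the kinase that phosphorylates CREB in the nucleus, was, among the classes, mainly counted in T-like cells. These held 180 of 227 Camk4 UMIs of kept Camk2d-CKO barcodes (79.3%) and 36 of 102 of Wild-type (35.3%), where 56.9% lay in barcodes of no class. T-like cells held 29.6 CPM (25.4 to 34.3) in Camk2d-CKO and 17.5 CPM (12.3 to 24.3) in Wild-type, a log2 ratio of 0.76 (0.23 to 1.32). No UMI was counted in B-like cells of either library, a count of 0 that allows 1.31 CPM in Camk2d-CKO and 1.32 CPM in Wild-type, and macrophage-like cells had 1 and 2 UMIs. After thinning, 5.11% of 1017 Camk2d-CKO (3.84 to 6.65) and 3.59% of 473 Wild-type T-like cells (2.11 to 5.69) kept a Camk4 UMI, and 0 of 1216 (up to 0.247%) and 1 of 2287 macrophage-like cells, at macrophage medians of 11337 and 4977 UMIs against 5045.5 and 3904 in T-like cells. Unthinned, the T-like shares were 14.7% and 6.73%. With free RNA subtracted the T-like level was 32.0 against 21.2 CPM.

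Within the T-like class, CD4 cells (411 in Camk2d-CKO and 62 in Wild-type) held 34.3 CPM with 72 UMIs against 15.7 CPM with 4 UMIs (log2 1.12, -0.29 to 3.04), in a subset where 21.2% of all genes were at least 1.5-fold higher. CD8 cells (347 and 211) held 19.2 CPM with 43 UMIs against 17.2 CPM with 16 UMIs (log2 0.16, -0.70 to 1.09). In the Camk2d-CKO library, where the count allows it, the CD4 level was above the CD8 level by 0.84 (0.27 to 1.42), while 10.6% of all genes were at least 1.5-fold higher in CD4 cells there. Regulatory T-like cells, marked by Foxp3, held 106 CPM (57.7 to 177, 14 UMIs in 22 cells) in Camk2d-CKO and 13.2 CPM (0.333 to 73.3, 1 UMI in 14 cells) in Wild-type. The gated mix of T-like cells differed between libraries, at class medians of 5045.5 UMIs in Camk2d-CKO and 3904 in Wild-type. Detection of the subset markers may depend on this depth. The part of mix and depth in the T-like ratio was not tested.

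Other genes of calcium and calmodulin signalling, a list of 62, were set beside the members. In macrophage-like cells 33 of the 62 passed the floors, 2 were at least 1.5-fold higher, 1 was that much lower (Camk2d), and the median log2 ratio was 0.03 against -0.12 over all genes, of which 4.11% were higher and 7.04% lower. The higher genes were Marcksl1, a membrane protein that binds calmodulin and actin, at 425 CPM in Camk2d-CKO and 148 CPM in Wild-type (1.52, 1.46 to 1.58), and Orai2, a store-operated calcium channel, at 11.1 against 5.92 CPM (0.91, 0.57 to 1.26). Marcksl1 was higher in both subsets, at 292 against 105 CPM in lipid-associated and 625 against 313 CPM in resident cells. A group of the list holds targets of the cascade, subunits of AMP-activated protein kinase among them. It also holds Stk11, which is not a target of the cascade but another upstream kinase of AMP-activated protein kinase. In macrophage-like cells none of the 10 counted genes of this group reached 1.5-fold in either direction. In natural killer-like cells 5 of 6 counted genes of the group, Stk11 included, were at least 1.5-fold higher, where 13.5% of all genes were. They were Crem (164 against 104 CPM, 0.66, 0.16 to 1.18) and the related factors Atf1 (49.6 against 23.2 CPM, 1.10, 0.08 to 2.26) and Creb1 (55.6 against 32.4 CPM, 0.78, -0.11 to 1.76). With intervals that held 0 too, Prkag1 and Stk11 were the others. In endothelial-like cells 3 of 7 genes of the group were that much higher, against 7.84% of all genes: Hdac5, Prkab1 and Stk11, the last with an interval that held 0. The 5 natural killer-like ratios rest on 9 to 45 Wild-type UMIs per gene.

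In progenitor-like cells 41 of the 62 passed the floors, 0 were at least 1.5-fold higher and 5 were that much lower, with a median of -0.11 against -0.10 over all genes, of which 3.42% were higher and 8.27% lower. These 5 were Iqgap1, a scaffold that binds calmodulin (171 against 266 CPM), Myo1e, a myosin (16.2 against 37.0 CPM), Itpkb, an inositol trisphosphate kinase (21.4 against 34.5 CPM), Orai1, a calcium channel (12.3 against 23.0 CPM), and Itpr3, an inositol trisphosphate receptor (12.4 against 30.5 CPM). In T-like cells 36 passed, with 2 higher and 5 lower, where 6.8% of all genes were higher and 13.5% lower. The T-like median was 0.06 against 0.02 over all genes. The higher ones were Crem, a relative of CREB (121 against 72.0 CPM, 0.75, 0.49 to 1.01), and Orai1 (182 against 119 CPM, 0.62, 0.42 to 0.82). The lower ones were Hdac5, Marcks, Marcksl1, Myo1e and Dapk1, among which Marcks held 30.8 against 138 CPM. In lipid-associated macrophage-like cells Marcks held 884 CPM in Camk2d-CKO and 570 CPM in Wild-type. The part of free RNA in the T-like and B-like Marcks values was not tested. In B-like cells 35 passed, with 5 higher and 5 lower, where 16.3% of all genes were higher and 13.3% lower. The higher ones were the calcineurin subunits Ppp3ca (225 against 130.4 CPM) and Ppp3cc (28.8 against 10.5 CPM), Crem, Orai2 and Itpr3. The lower ones were Camk2n1, an inhibitor of CaM kinase II (8.74 against 27.2 CPM), the calcium release channel Ryr1 (27.1 against 62.8 CPM), Marcks (56.4 against 150.2 CPM), Dapk3 and Orai3. The counts of higher and lower genes were 1 and 2 of 29 in dendritic-like, 9 and 3 of 31 in natural killer-like, 7 and 4 of 32 in endothelial-like and 0 and 21 of 26 in erythroid-like cells. Among all genes of endothelial-like cells 7.84% were higher and 12.2% lower, of natural killer-like cells 13.5% and 10.2%, of dendritic-like cells 6.64% and 11.1%, and of erythroid-like cells 2.19% and 80.8%.

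The genes whose pattern was most like that of each member were sought over the 7 classes other than erythroid-like cells, among 4502 genes. Likeness was the Pearson correlation of log2(CPM + 10), taken as the lower of the values of the libraries. It describes 7 points per library that share a library and its free RNA. For Camkk2 the leading genes were Zc3h12a (0.82), Mapk6 and Cd300ld. Those of Camk1 were Mir22hg (0.96), Rab11fip5 and Spred1, and those of Camk1d were Got1 (0.93), Syngr2 and Gtpbp4. Camk4 was most like Gzmk (0.98), Cd3e and Pdcd1, of which Cd3e is a marker used to find T-like cells. For Calm2 they were Rasa1 (0.90), Osbpl8 and Il10rb, for Calm3 Clptm1l (0.83), Atp1b3 and Ppp2r5c, and for Camkk1 Parp3 (0.88), Chd9 and Add3.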

How the data were processed

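Whole-number UMI counts per gene and barcode were deposited by the authors as 1 matrix per library, with no normalisation; Cell Ranger 5.0.0, Seurat 4.1.1 and mm10 are named in the submitters' processing notes. How reads matching several near-identical calmodulin copies were treated is not given in the sources used here. All 7 gene identifiers matched GENCODE M21.

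Barcodes with at least 500 UMIs, 200 genes and at most 20% mitochondrial UMIs were kept (996 of the Camk2d-CKO and 223 of the Wild-type barcodes failed). Doublets were removed at a Scrublet score of 0.25 (435 and 478 barcodes, 4.51% and 3.12%), since the automatic threshold called 313 and 0. Cells were classed by at least 3 distinct markers, by a scoring that was set after the data were seen. Erythroid-like cells were instead set by more than 20% of UMIs in haemoglobin genes and Alas2, and stricter gates did not alter this class. Barcodes in no class were not named. Levels are summed UMIs per 1000000 UMIs of the class, with exact Poisson intervals; ratios have exact conditional intervals and shares Clopper-Pearson intervals at 95%, all for counting error only, since PCR and sampling of mice are not covered. A member and class pair was compared at 10 CPM or more in the higher library and 30 UMIs or more over both. Free RNA was estimated as the median level of foreign markers relative to the library. Each cell was thinned to 2000 UMIs for shares. A count of 0 is given with the limit of 3 counts.

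The genes named were the 7 members, 3 genes most like each, and those of 62 listed calcium and calmodulin signalling genes past 1.5-fold. The members, lists and markers were chosen with earlier results of these data known. The calculations were tested on simulated data. Alternatives were other scaling, per-cell means, cell filters, doublets kept, stricter gates, joint clusters (scanpy 1.11.5, leidenalg 0.10.2, 2000 variable genes, 30 components, resolution 1.0), subtraction of free RNA, other folds and floors, and equal weight per subset. Python 3.11.15, numpy 2.4.6, scipy 1.17.1, pandas 2.3.3 and matplotlib 3.10.9 were used.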

Additional observations from a re-analysis of the deposited data

Results flagged for a closer look

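For the genes below, the ratio of Camk2d-CKO over Wild-type lay above 0 in at least 1 class and below 0 in another, with counting intervals that held no 0. The difference between classes was not tested, since each genotype has 1 library. Calm3 had a log2 ratio of 0.40 in B-like cells, -0.33 in macrophage-like cells and -0.31 in progenitor-like cells. Camkk2 stood at 0.62 in macrophage-like cells and -0.30 in progenitor-like cells. Camk1 stood at 0.25 in macrophage-like cells, and at -2.78 in type 1 dendritic-like, -1.82 in T-like, -1.59 in B-like and -0.22 in progenitor-like cells. Camk1d stood at 0.44 in macrophage-like and 0.80 in B-like cells and at -0.64 in progenitor-like cells. The summed level of foreign markers was lower in Camk2d-CKO in each of these classes, for instance 3015 against 6248 CPM in B-like and 2497 against 5081 CPM in progenitor-like cells, and its part in the opposite directions was not tested.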

How the results depend on the processing

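The 3 pairs of a member and a class at least 1.5-fold higher in Camk2d-CKO became 0 at a fold of 2 and 6 with no floor, and stayed between 2 and 4 under the other alternatives. The 10 pairs at least 1.5-fold lower became 5 under the stricter cell filter, which left no erythroid-like class, 5 with free RNA subtracted, 2 at a floor of 50 CPM and 17 with no floor, and stayed between 7 and 11 under the other alternatives. Calm2 in endothelial-like cells had a log2 ratio of -0.42, and 0.000958 under joint clusters; the cause was not tested. Joint clusters also moved Camk1 in dendritic-like cells to -0.86. Equal weight for the subsets of at least 50 cells moved Camkk2 in macrophage-like cells to 0.28 and Camk1d in progenitor-like cells to -0.28. The order of classes differed in up to 9 class pairs per gene and library under joint clusters, and in 4 for Camk1 in Camk2d-CKO with free RNA subtracted. Without thinning 70 shares of cells with a UMI moved beyond their interval, and 70 did so at 1000 UMIs per cell. Stricter gates and joint clusters gave no subset values. No paired analysis was possible because each genotype has 1 library. Depth limits Camkk1 and Camk4, which had at most 243 UMIs in a library.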

Other observations

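Classes and subsets with under 50 cells in a library gave these values. Camk1 held 180.1 CPM (12 UMIs) in Camk2d-CKO and 210.3 CPM (13 UMIs) in Wild-type mast-like cells, of which there were 40 and 27. Camk1d held 108 CPM (49 UMIs) in Camk2d-CKO and 58.5 CPM (7 UMIs) in Wild-type monocyte-like cells. In cavity-type macrophage-like cells, 50 in Camk2d-CKO and 15 in Wild-type, Calm2 held 349.9 and 732 CPM.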
